A study of Mus musculus with 32 samples.

Results

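Small RNA was sequenced in mouse embryonic stem cells (ESCs) and in neurons induced from them (iNs), with and without the maternal copy of a large imprinted microRNA cluster, and the quantity described here is the difference between the effect of that deletion in iNs and its effect in ESCs. It was computed for each mature microRNA as deletion iNs minus control iNs, less deletion ESCs minus control ESCs, on the log2 scale. The contrast used all 12 small RNA libraries of the series, 3 in each of 4 groups, out of 32 samples in all. A further 12 libraries of ribosomal RNA-depleted RNA, from the same 4 kinds of cells, were used for the transcripts that microRNAs are cut from.

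The ESCs were hybrid mouse cells at day 0, kept in medium with serum and LIF. The iNs were taken on day 10 of doxycycline induction of a TetO-Ngn2 transgene, which makes the stem cells turn into neurons through the transcription factor Neurogenin 2. Control cells of both kinds were Mirg(fl/+), so they carried a floxed but intact cluster, and deletion cells of both kinds were Mirg(Delta/+). The deletion removed the maternal miR-379/410 cluster, and the paternal copy was left in place. The labels give replicates A, B and C for each group and do not say whether these were separate cultures or clones, so the p-values measure the spread between these libraries only.

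Each small RNA library held between 3038112 and 4216346 estimated counts over all features, and the share assigned to mature microRNAs ranged from 18.0% to 27.9% over the 6 ESC libraries, from 37.0% to 38.6% over the control iN libraries and from 29.0% to 30.1% over the deletion iN libraries. That share was lower in the deletion iNs, so levels depend on what they are scaled to. MicroRNA values below are CPM (counts scaled to 1e+06 mature microRNA counts) after trimmed-mean (TMM) scaling, and the calls under other scalings stand beside the first count. For genes in the RNA libraries, CPM are per 1e+06 gene counts, after TMM scaling except for cell type markers, which had none. In bulk RNA of this kind, fewer cells of a type and less RNA per cell cannot be told apart.

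MicroRNAs are RNAs of about the length of a short primer that are cut from hairpins and guide Argonaute proteins to messenger RNAs, mainly through the seed, bases 2 to 8 from the 5′ end. Many hairpins lie side by side on 1 primary transcript, so that their products are made together. Stem cells are known for the miR-290 to miR-295 and miR-302 clusters and for the miR-17 to miR-92 group with its paralogs, epithelial and pluripotent cells for the miR-200 family, and neurons for miR-9, miR-124, miR-137 and miR-218. The imprinted region on the distal part of mouse chromosome 12 holds the miR-379/410 cluster, which is expressed from the maternal copy, within a longer maternal transcription unit that begins at Meg3 and ends in Mirg.

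Of the 19 microRNAs whose deletion effect was lower in iNs than in ESCs, 11 lay within 10 kb of another lower call on the same strand, in 4 rows of neighbours, and 8 were the only lower call of their locus. Sequences are printed for 3 of the 4 rows and for 2 of the single loci, to show which of them share a seed. Capitals mark the seed, positions are on GRCm38.p6, and sequences are those of RefSeq. The 2 X-linked members of the miR-17 group share the seed AAAGUGC, and the 3 members of the chromosome 4 transcript carry the seeds AAUACUG and AACACUG. The products of the miR-290 to miR-295 transcript on chromosome 7 carry different seeds, and miR-34a-5p and miR-205-5p are shown as the members of other loci.
miR-20b-5p: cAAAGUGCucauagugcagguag
miR-106a-5p: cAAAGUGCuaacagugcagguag
miR-200b-3p: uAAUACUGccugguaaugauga
miR-429-3p: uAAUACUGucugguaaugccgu
miR-200a-3p: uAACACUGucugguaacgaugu
miR-291a-5p: cAUCAAAGuggaggcccucucu
miR-292a-5p: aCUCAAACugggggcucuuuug
miR-295-3p: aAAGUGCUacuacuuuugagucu
miR-34a-5p: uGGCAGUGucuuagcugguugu
miR-205-5p: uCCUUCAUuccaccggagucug

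The microRNAs whose deletion effect was higher in iNs carry seeds that none of those share. Both arms of the miR-9 hairpin are among them. Shown with them are the brain microRNAs miR-218-5p, miR-135a-5p and miR-338-3p, the pair from the imprinted region, miR-433-3p and miR-136-3p, and miR-152-3p, miR-26a-5p and miR-6240. RefSeq sequences for miR-150-5p and miR-3078-5p were not used here.
miR-9-5p: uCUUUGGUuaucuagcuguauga
miR-9-3p: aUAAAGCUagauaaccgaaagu
miR-218-5p: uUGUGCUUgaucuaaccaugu
miR-135a-5p: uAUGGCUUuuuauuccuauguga
miR-338-3p: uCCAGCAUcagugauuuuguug
miR-433-3p: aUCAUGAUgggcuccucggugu
miR-136-3p: aUCAUCGUcucaaaugagucuu
miR-152-3p: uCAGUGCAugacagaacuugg
miR-26a-5p: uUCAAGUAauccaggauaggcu
miR-6240: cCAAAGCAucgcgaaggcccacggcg

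Of the 541 microRNAs tested, 30 had an interaction at an adjusted p under 0.05 (5.55%), 11 of them higher in iNs than in ESCs (2.03%) and 19 lower (3.51%). None of the 30 lay in the deleted cluster, so that they were 30 of 486 tested outside it (6.17%). The ratio of higher to lower calls rested on the scaling. It was 11 to 19 as reported, 10 to 23 with DESeq2 size factors, 6 to 27 on totals outside the cluster, 5 to 39 with TMM computed without the cluster microRNAs and 1 to 47 when libraries were scaled to the sum of all features. Under those settings the median interaction outside the cluster was -0.09 as reported, -0.10, -0.16, -0.28 and -0.50 in the same order. All 19 lower calls passed under scaling to all features, and 1 of the 11 higher calls did.

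All 19 microRNAs called lower were more abundant in control ESCs than in control iNs, and all 11 called higher were more abundant in control iNs. Among the 486 tested outside the cluster, 53.7% were more abundant in control ESCs. The control libraries enter both the interaction and this comparison of levels, so the counts are a description and were not tested. Of the 30, 24 passed in iNs by themselves (80%), and 8 passed in ESCs (26.7%). Outside the cluster the deletion effect in iNs passed for 43 microRNAs upward (8.85%) and 45 downward (9.26%), and in ESCs for 21 upward (4.32%) and 27 downward (5.56%). The plot of the iN effect against the ESC effect shows the lower calls under the line of equal effect, all of them below 0 in iNs.

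**Figure D1:**
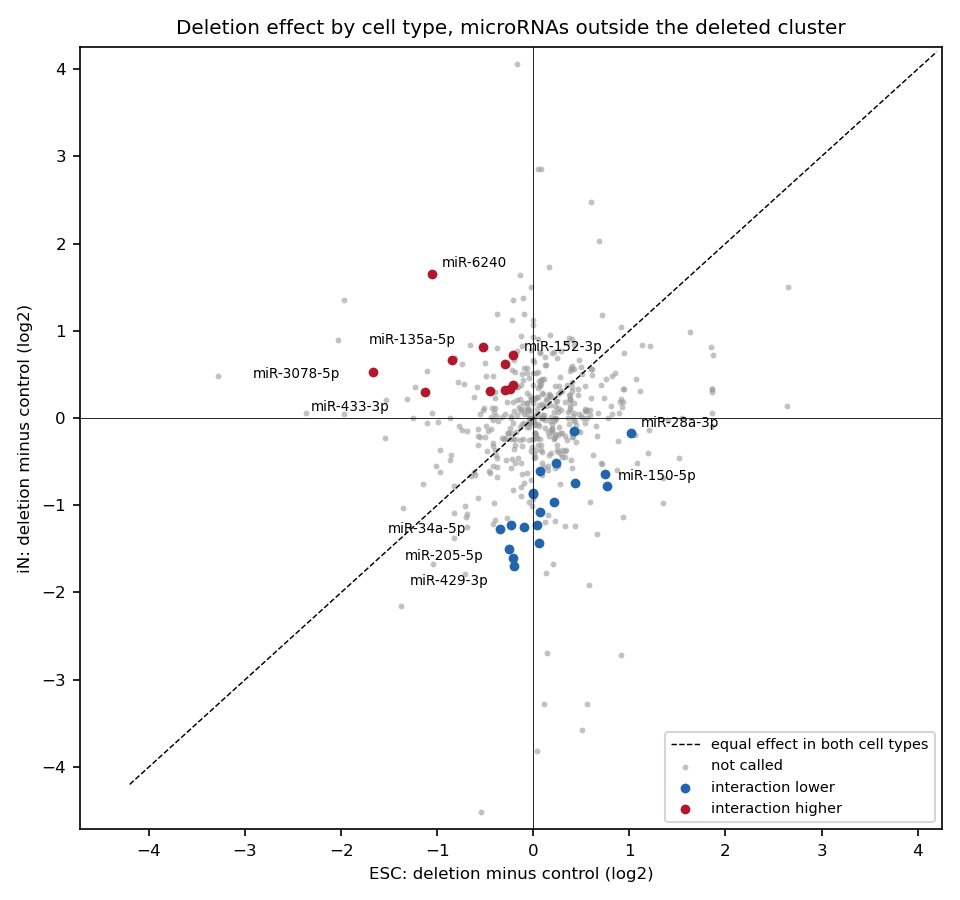
Deletion minus control in iNs (vertical, log2) against deletion minus control in ESCs (horizontal, log2) for the 486 microRNAs tested outside the cluster, 1 point each. The dashed line marks an equal effect, blue points are the 19 called lower, red points the 11 called higher and grey points those not called. The red points all lie above 0 in iNs and below 0 in ESCs.

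Mature microRNAs of the miR-290 to miR-295 row, the main microRNA locus of pluripotent mouse cells, were far lower in iNs than in ESCs, and 3 of them fell there with the deletion and not in ESCs. miR-291a-5p stood at 212, 187 and 108 CPM in the control iN libraries A, B and C and at 75.4, 64.4 and 76.6 in the deletion iN libraries. In ESCs it stood at 4016, 4259 and 4441 in control and 3860, 4278 and 4939 in deletion libraries. The iN groups did not overlap and the ESC groups did. Its interaction was -1.27 (SE 0.27, adjusted p = 0.0118). miR-292a-5p behaved alike, at 238, 198 and 161 CPM in control iNs and 76.6, 105 and 100 in deletion iNs, with an interaction of -1.14 (SE 0.23, adjusted p = 0.00736). miR-295-3p, which carries the AAGUGCU seed for which the family is best known, stood at 605, 459 and 449 CPM in control iNs and 278, 255 and 294 in deletion iNs, that is 54.6% of control. In ESCs it was at 99.7% of control, and its interaction was -0.87 (SE 0.21, adjusted p = 0.0191).

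Of the 13 microRNAs of this list tested, 3 were called lower, where 3.51% of all 541 were, and none higher. The median interaction was -0.79 against -0.09 over all 541 tested. On the transcript itself, at chr7:3218639-3220837 on the plus strand, 12 of the tested mature microRNAs were placed and 10 of these lay below 0. miR-292a-3p, the other arm of miR-292a-5p, was tested but is not among the 12. It lay at -0.56 (SE 0.46, adjusted p = 0.57). Of the 486 microRNAs tested outside the cluster, 215 lay above 0. The most abundant after miR-295-3p, miR-293-5p at 15008 CPM in control ESCs, had an interaction of -0.69 (SE 0.20) that missed the threshold (adjusted p = 0.0552). Several of the others had fewer than 10 CPM in control iNs and wide errors, such as miR-291a-3p at -0.55 with an SE of 1.75. The miR-302 and miR-367 list, also of stem cells, had no call among 9 tested, with a median of -0.27. Of its members, miR-302d-3p fell in both cell types, by 1.38 in iNs and by 0.82 in ESCs on the log2 scale, with an interaction of -0.55 (SE 0.31, adjusted p = 0.347).

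The X-linked paralog of the miR-17 to miR-92 transcript makes miR-106a, miR-18b, miR-20b, miR-19b, miR-92a and miR-363. Of its tested products, 9 were placed at chrX:52741697-52742563 on the minus strand, and 3 of these were called lower. miR-363-5p was also tested and is not among the 9. miR-20b-5p was among the 5 most abundant microRNAs of ESCs. It stood at 2737, 2329 and 1821 CPM in control iNs and 890, 799 and 853 in deletion iNs, and at 33229, 49230 and 45893 in control ESCs against 34488, 45153 and 54260 in deletion ESCs. In iNs the groups were apart, with deletion libraries at 36.9% of control, in ESCs they overlapped, and the interaction was -1.50 (SE 0.26, adjusted p = 0.00252). miR-106a-5p stood at 263, 262 and 196 CPM in control iNs and 92.2, 73.6 and 89.0 in deletion iNs, with an interaction of -1.25 (SE 0.20, adjusted p = 0.00208). In ESCs it was at 84.1% of control. miR-363-3p, at the 3′ end of the row, stood at 254, 190 and 193 CPM in control iNs and 119, 102 and 131 in deletion iNs, with an interaction of -0.85 (SE 0.20, adjusted p = 0.0158).

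The other tested products of the same transcript had no call. miR-363-5p, the other arm of the miR-363 hairpin, had an interaction of -1.27 (SE 0.43, adjusted p = 0.0898). Its log2 effect was -1.11 in iNs and 0.16 in ESCs. miR-18b-5p fell in both, by 0.92 in iNs and 0.58 in ESCs on the log2 scale, with an interaction of -0.34 (SE 0.26, adjusted p = 0.559). miR-19b-3p and miR-92a-3p are also encoded in the miR-17 to miR-92 transcript on chromosome 14, so that their counts join 2 loci, and their interactions were -0.20 (SE 0.17) and -0.26 (SE 0.28). Over the whole miR-17 to miR-92 list, 28 were tested, 3 called lower and none higher, with a median of -0.09, equal to that of all microRNAs tested. Of all 541 tested, 3.51% were called lower.

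The miR-200 family, guards of the epithelial state that target Zeb transcription factors, gave the lowest median of the lists with a call, -1.15. Together with miR-205 it had 11 members tested, of which 4 were called lower, against 3.51% of all 541, and 10 lay below 0. Outside the cluster, 215 of the 486 microRNAs tested lay above 0. miR-200b, miR-200a and miR-429 come from 1 transcript at chr4:156053916-156055742 on the minus strand, and all 5 of its microRNAs tested lay below 0. miR-429-3p stood at 456, 395 and 288 CPM in control iNs and 116, 129 and 106 in deletion iNs. In ESCs it stood at 4145, 4206 and 4202 in control and 3748, 3422 and 3744 in deletion libraries, so the groups did not overlap in either cell type, but the fall to 30.9% in iNs stood against 86.9% in ESCs. Its interaction was -1.49 (SE 0.22, adjusted p = 0.00139), the smallest adjusted p of the 541.

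miR-200a-3p stood at 404, 343 and 299 CPM in control iNs and 123, 156 and 160 in deletion iNs, with an interaction of -1.15 (SE 0.21, adjusted p = 0.00338). miR-200b-3p stood at 343, 317 and 235 CPM in control iNs and 145, 127 and 110 in deletion iNs, with an interaction of -0.99 (SE 0.21, adjusted p = 0.0109). In both, every deletion iN library lay below every control iN library. The other branch of the family, miR-200c-3p and miR-141-3p, fell in iNs as well, by 0.96 and 0.63 on the log2 scale, but their interactions of -0.92 and -0.57 missed the threshold (adjusted p = 0.0839 and 0.108). miR-205-5p, of a separate locus on chromosome 1 and also epithelial, stood at 96.0, 89.7 and 76.5 CPM in control iNs and 27.5, 21.5 and 37.2 in deletion iNs. Its interaction was -1.40 (SE 0.25, adjusted p = 0.00332).

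miR-34a-5p, a target gene of p53 that is also made in neurons, fell in both cell types and further in iNs. It stood at 3816, 3703 and 3335 CPM in control iNs and 1509, 1385 and 1610 in deletion iNs, and at 9094.7, 9936 and 9320 in control ESCs against 7420, 7497 and 7405 in deletion ESCs. The groups overlapped in neither cell type. The level was 41.5% of control in iNs and 78.7% in ESCs, both past the test, and the interaction was -0.92 (SE 0.16, adjusted p = 0.00252). It was the only call among 6 tested of the miR-34 and miR-449 list, where miR-34b-5p and miR-449a-5p, which share the seed GGCAGUG, lay at 0.05 (SE 0.69) and 0.34 (SE 0.24).

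miR-150-5p, known from lymphocytes, was far higher in control ESCs than in control iNs and moved in opposite directions in the 2 cell types. In iNs it stood at 86.1, 72.3 and 52.2 CPM in control and 47.9, 39.9 and 34.9 in deletion libraries, and in ESCs at 3021, 3735 and 4738 against 5693, 5242 and 8644. Groups were apart in both, with a fall to 58.3% in iNs and a rise to 170% in ESCs. The interaction of -1.55 (SE 0.34, adjusted p = 0.0118) was the lowest of the 30. The blood markers read, Ptprc and Hbb-bs, summed to at most 0.186 CPM in any RNA library, with Hbb-bs at 0 in all 12, and a part of blood cells in this result was not tested.

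miR-146a-5p, a feedback inhibitor of NF-kB signalling, stood at 121, 105 and 83.9 CPM in control iNs and 51.5, 57.2 and 75.5 in deletion iNs. In ESCs it stood at 494, 632 and 674 in control and 766, 802 and 869 in deletion libraries, apart but short of the threshold there (adjusted p = 0.077). Its interaction was -1.18 (SE 0.26, adjusted p = 0.0118). miR-221-3p, which targets the cell cycle inhibitor p27, had the same size of interaction, -1.18 (SE 0.32, adjusted p = 0.0429), but its iN groups overlapped, at 73.0, 65.6 and 44.1 CPM in control and 25.1, 23.5 and 45.1 in deletion libraries. Deletion iN library C was the high one. The chromosome 8 transcript of miR-23a, miR-27a and miR-24 gave 2 more lower calls, miR-23a-3p at -0.75 (SE 0.20, adjusted p = 0.0435) and miR-27a-3p at -0.67 (SE 0.19, adjusted p = 0.0487). miR-24-3p, which a second locus also encodes, lay at -0.37 (SE 0.16, adjusted p = 0.20).

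Of the 19, 3 rose in ESCs and did not pass the test in iNs. miR-28a-3p stood at 330, 473 and 617 CPM in control ESCs and 721, 976 and 1184 in deletion ESCs, 202% of control. In iNs it stood at 485, 385 and 371 in control and 411, 364 and 324 in deletion libraries, which overlapped. Its interaction was -1.19 (SE 0.30, adjusted p = 0.0275). miR-30c-1-3p, the passenger arm of a miR-30c hairpin, stood at 43.0, 73.4 and 69.6 CPM in control ESCs and 101, 86.1 and 126 in deletion ESCs. In iNs it stood at 39.2, 41.5 and 40.5 CPM in control and 22.8, 24.5 and 30.4 in deletion libraries, which did not overlap but missed the threshold (64.3% of control, adjusted p = 0.0835). Its log2 difference was -0.64 in iNs and 0.74 in ESCs, so both cell types entered the interaction of -1.38 (SE 0.33, adjusted p = 0.0209). Summed with the counts assigned to its hairpin, the interaction changed sign, to 0.0862 (adjusted p = 0.86). miR-21a-5p, widely raised in proliferating and stressed cells, was chosen for mention after its values were seen. It stood at 13297, 14083 and 13468 CPM in control ESCs and 17392, 19532 and 17783 in deletion ESCs, and its interaction was -0.58 (SE 0.16, adjusted p = 0.0487). Fibroblast or feeder marker RNA (Col1a1, Col3a1 and Dcn, all 3 counted in ESCs) summed to 46.5 to 53.1 CPM with the control genotype and 80.8 to 88.5 CPM with the deletion. Nearly all of it was Col1a1, at 47.0, 41.2 and 46.6 CPM with the control genotype and 80.7, 71.5 and 73.3 with the deletion, while Dcn overlapped, at 1.12, 1.02 and 1.53 against 1.05, 1.42 and 1.07. Its part in these rises was not tested.

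**Figure D2:**
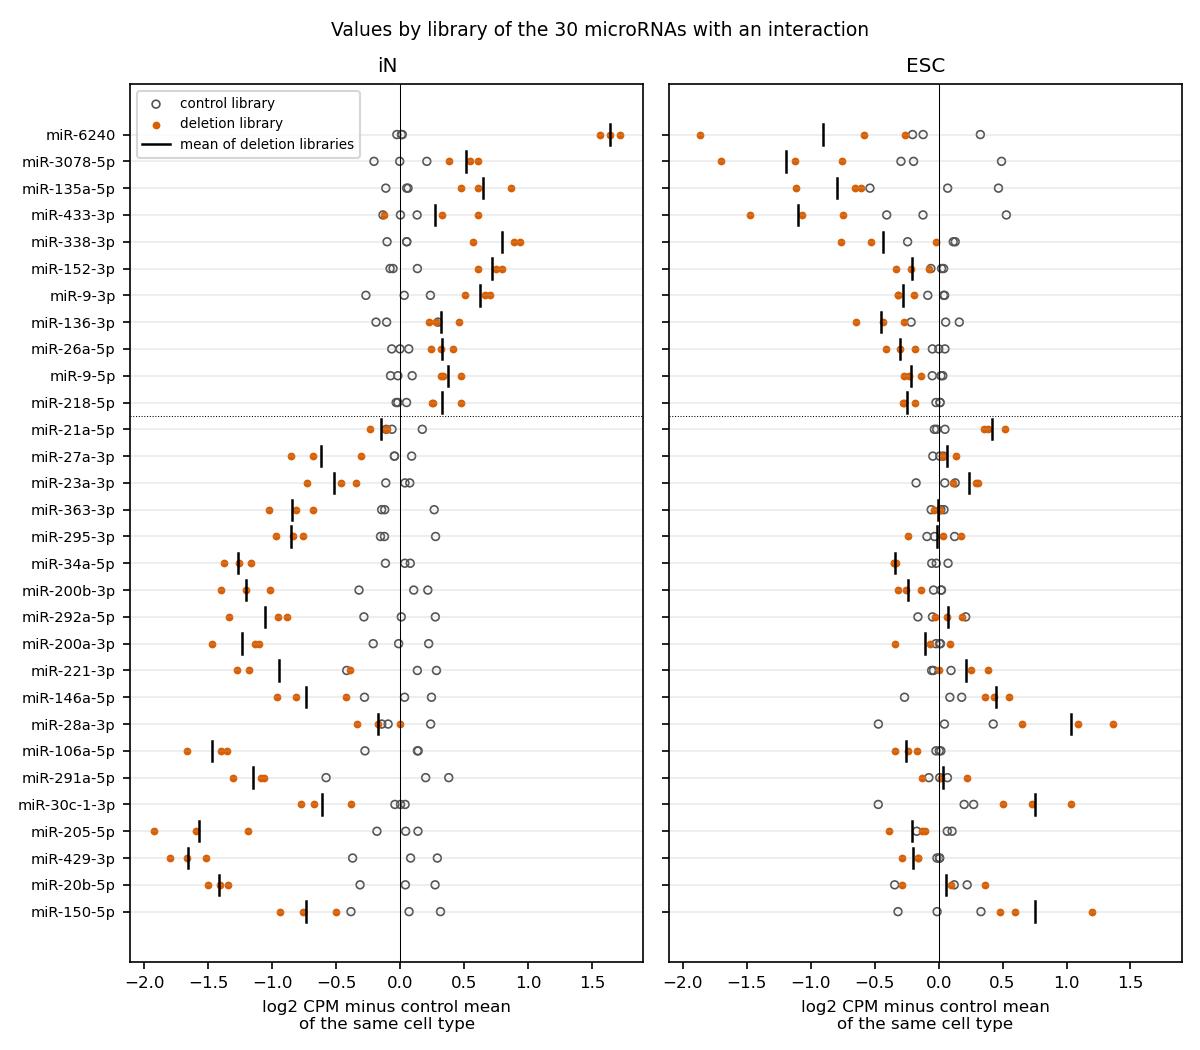
Each row is 1 of the 30 microRNAs with an interaction, ordered from the highest to the lowest, and each point 1 library, as log2 CPM minus the mean of the control libraries of the same cell type. Open circles are control libraries, filled circles deletion libraries and vertical bars the mean of the 3 deletion libraries. Below the dotted line most filled circles of the iN panel lie left of the open ones. In the ESC panel those of miR-28a-3p, miR-30c-1-3p, miR-150-5p, miR-146a-5p and miR-21a-5p lie to the right.

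Of the 30, 25 had deletion and control libraries apart in iNs and 19 had them apart in ESCs, where 34.8% and 24.7% of the 486 microRNAs outside the cluster did. The 30 were chosen by a test on these same libraries, which favours groups that lie apart, so the counts are a description only. The called ones that overlapped in iNs were miR-21a-5p, miR-28a-3p and miR-221-3p among the lower, and miR-433-3p and miR-136-3p among the higher.

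Some called microRNAs differ from an uncalled one by 1 or 2 bases, and the estimated counts divide reads that fit both. Sequences at an edit distance of 2 or less were therefore also summed, a choice made after the values were seen. miR-27a-3p and miR-27b-3p differ by 1 base, and miR-20b-5p differs from miR-20a-5p by 2 bases and miR-106a-5p from miR-17-5p by 1, with the same seed in each pair.
miR-27a-3p: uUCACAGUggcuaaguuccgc
miR-27b-3p: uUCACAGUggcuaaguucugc
miR-20a-5p: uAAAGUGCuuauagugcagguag
miR-17-5p: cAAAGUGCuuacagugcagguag
The 4 summed as miR-17-5p, miR-20a-5p, miR-20b-5p and miR-106a-5p had an interaction of -0.51 (SE 0.16, adjusted p = 0.0702), where miR-20a-5p by itself was at 0.28 and miR-17-5p at 0.04. miR-106a-5p was 3.55% and miR-20b-5p 34% of that sum in control iNs. miR-27a-3p was 1.62% of its pair there, and the pair lay at -0.19 (SE 0.15, adjusted p = 0.512). miR-146a-5p with miR-146b-5p lay at -0.67 (SE 0.23, adjusted p = 0.0915), and miR-26a-5p with miR-26b-5p at 0.51 (SE 0.16, adjusted p = 0.078). The sums of miR-200a-3p with miR-141-3p, of miR-200b-3p with miR-200c-3p and of miR-291a-5p with miR-291b-5p remained below 0 and past the threshold, at -0.999, -1.10 and -1.33.

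The microRNAs called higher rose in iNs or fell in ESCs, and 8 of the 11 passed in iNs by themselves while 3 passed in ESCs. miR-9, which represses Rest and Tlx and so helps progenitors become neurons, was called on both arms. miR-9-5p stood at 3083, 2962 and 3332 CPM in control iNs and 3936, 3888 and 4347 in deletion iNs, and at 1630, 1708 and 1725 in control ESCs against 1435, 1399 and 1537 in deletion ESCs. All deletion libraries lay above the control libraries in iNs and below them in ESCs. The interaction was 0.59 (SE 0.16, adjusted p = 0.0412). miR-9-3p stood at 240, 194 and 277 CPM in control iNs and 383, 334 and 372 in deletion iNs, with an interaction of 0.90 (SE 0.25, adjusted p = 0.0429). The 3 loci of miR-9 give the same mature sequences and cannot be told apart here.

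miR-135a-5p stood at 317, 319 and 282 CPM in control iNs and 426, 468 and 558 in deletion iNs. In ESCs, where it is scarce, it stood at 36.8, 27.5 and 17.4 in control and 15.9, 11.04 and 16.5 in deletion libraries. Its interaction was 1.51 (SE 0.35, adjusted p = 0.0158). miR-338-3p, which lies in an intron of the kinase gene Aatk and is known from oligodendrocytes and neurons, stood at 172, 155 and 172 CPM in control iNs and 320, 247 and 310 in deletion iNs, with an interaction of 1.34 (SE 0.38, adjusted p = 0.0487). Glia marker RNA (Gfap, Aqp4, Olig2 and Mbp) summed to 36.1 to 40.3 CPM in iNs of the control genotype and 41.1 to 48.3 CPM with the deletion, nearly all of it Mbp, with Gfap at 0 in all 6. Its part in this result was not tested. miR-218-5p, of motor neurons, rose to 126% of control in iNs and had an interaction of 0.57 (SE 0.16, adjusted p = 0.0446).

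Of the brain list, 40 were tested. The 5 just named were called higher, where 2.03% of all 541 tested were, and none lower. Among these, miR-338-3p had also been named with microRNAs of other cell types when markers were chosen. The list's median was 0.21, and 31 of the 40 lay above 0, where 215 of the 486 tested outside the cluster did. The count of calls fell to 1 with TMM computed without the cluster and to 0 on scaling to all features, where the list's median turned to -0.18. The list stayed 0.28 to 0.32 above the median of all microRNAs outside the cluster under each of the scalings. miR-137-3p, among the 5 most abundant of iNs, lay at 0.52 (SE 0.23, adjusted p = 0.204), and miR-124-3p at 1.05 (SE 0.34, adjusted p = 0.0839). For miR-124-3p, deletion iN libraries A, B and C lay -0.03, -0.11 and -0.03 from the control iN mean on the log2 scale. Deletion ESC libraries lay -0.77, -1.11 and -1.11 from the control ESC mean.

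miR-152-3p, of the miR-148 family that targets DNA methyltransferase 1, stood at 3710, 3200 and 3251 CPM in control iNs and 5859, 5167 and 5691 in deletion iNs. In ESCs it stood at 709, 751 and 759 in control and 586, 701 and 637 in deletion libraries. The interaction of 0.92 (SE 0.17, adjusted p = 0.00332) was past the threshold in 22 of 23 other settings. miR-148a-3p and miR-148b-3p, which share its seed, lay at -0.05 (SE 0.28) and -0.02 (SE 0.16). miR-26a-5p, made from introns of the phosphatase genes Ctdspl and Ctdsp2, stood at 10085, 9618 and 9196 CPM in control iNs and 11408, 12044 and 12786 in deletion iNs, with an interaction of 0.62 (SE 0.16, adjusted p = 0.0271).

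miR-6240 had the highest interaction, 2.71 (SE 0.46, adjusted p = 0.00252). It stood at 135, 131 and 135 CPM in control iNs and 420, 400 and 445 in deletion iNs, a rise to 315%, while in ESCs it stood at 9.82, 9.17 and 14.1 in control and 1.59, 6.63 and 8.71 in deletion libraries. The 6 iN libraries split by genotype. Whether the reads given to this entry come from a true microRNA was not examined. Summed with the counts assigned to its hairpin, the interaction was 0.83 and no longer passed (adjusted p = 0.545). miR-3078-5p stood at 39.2, 45.7 and 33.8 CPM in control iNs and 61.1, 58.3 and 51.8 in deletion iNs, and at 7.37, 8.03 and 14.1 in control ESCs against 1.59, 3.31 and 4.84 in deletion ESCs. Its interaction was 2.20 (SE 0.52, adjusted p = 0.019), resting on a few counts per ESC library.

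The microRNAs just upstream of the deletion on the same maternal transcription unit had the highest median of the lists with a call, 0.45. Of the 25 tested, 2 were called higher, against 2.03% of all 541, and none lower. Above 0 lay 18 of the 25, where 215 of the 486 tested outside the cluster did. The sequence of these upstream microRNAs is retained in both genotypes. miR-433-3p, which lies within the annotated span of Rtl1, at chr12:109591781-109591802 on the plus strand, stood at 403, 256 and 210 CPM in control ESCs and 165, 131 and 98.8 in deletion ESCs, 45.9% of control. In iNs the groups overlapped, at 290, 318 and 264 in control and 266, 364 and 444 in deletion libraries. Its interaction was 1.42 (SE 0.34, adjusted p = 0.0206). miR-136-3p, the one nearest to the cluster of the 17 tested between miR-337 and miR-136, stood at 2368, 2550 and 1963 CPM in control ESCs and 1686, 1891 and 1456 in deletion ESCs, with an interaction of 0.76 (SE 0.22, adjusted p = 0.0487). Its other arm, miR-136-5p, lay at 1.19 (SE 0.37, adjusted p = 0.063).

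The abundant miR-127-3p, of the same hairpin row, stood at means of 27345 CPM in control iNs and 16464 in control ESCs, and lay at 0.45 (SE 0.17, adjusted p = 0.124). miR-431-5p and miR-337-5p lay at -0.09 (SE 0.19) and -0.04 (SE 0.21), so the values along this stretch ran on both sides of 0. Scaled to all features, none of the 25 was called and the list's median was 0.04, which is 0.54 above that of all microRNAs outside the cluster, as it was in the scaling reported. The plot of neighbouring microRNAs sets this stretch beside the transcripts with lower calls.

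**Figure D3:**
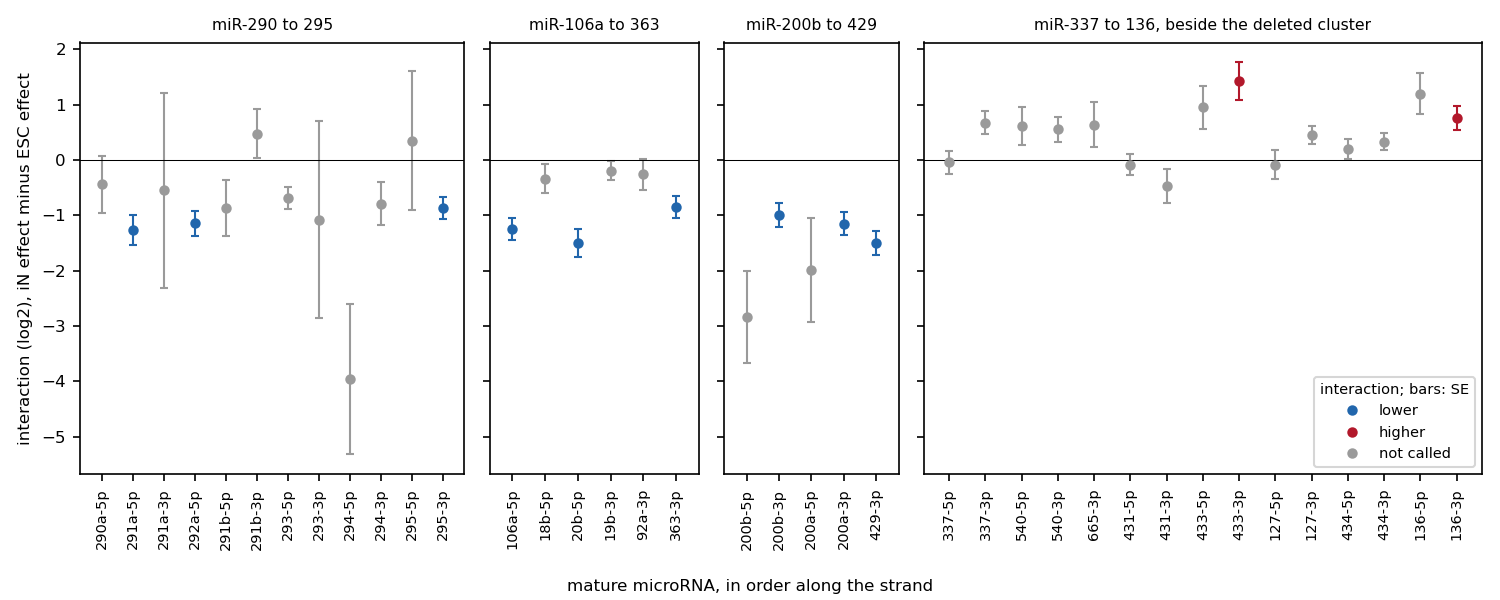
Interaction (log2, iN effect minus ESC effect) with its SE for the microRNAs of 4 chains of neighbours, each within 10 kb of the next, in order along the strand. Of those placed in a chain, the ones whose average log2 CPM reaches 4 are drawn, blue for called lower, red for called higher and grey for not called. miR-292a-3p and miR-363-5p were tested but not placed, and are not drawn. The miR-200b to miR-429 chain lies wholly below 0, and the chain beside the deleted cluster mostly above it.

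Among the other lists, single calls came from miR-30 (miR-30c-1-3p of 11 tested, median -0.14), from miR-221 and miR-222 (miR-221-3p of 3) and from miR-26 and miR-103 (miR-26a-5p of 6), and 2 lower calls from miR-23, miR-24 and miR-27 (of 7, median -0.37). Over all 541 tested, 2.03% were called higher and 3.51% lower. let-7, the family that Lin28 proteins hold back in stem cells, had no call among 12 tested, with a median of -0.02 and a range of -0.66 to 1.36. The lin-4 and miR-99 partners of let-7 had none of 7 (median -0.31), miR-15 and miR-16 none of 14 (median -0.36), miR-130 and miR-301 none of 8 (median -0.26) and miR-181 none of 7 (median -0.12). miR-29 had none of 5 (median 0.36), the Hox cluster microRNAs none of 6 (median 0.03), the X-linked cluster of miR-465 and miR-741 none of 11 (median 0.03), other imprinted loci none of 5 (median -0.53) and the repeat family of miR-466, miR-467, miR-669 and miR-297 none of 36 (median -0.24). MicroRNAs of other cell types, such as muscle, liver, blood and endothelium, had none of 18 (median -0.19). When markers were chosen, miR-338 was named with the microRNAs of other cell types. The called miR-338-3p, known from oligodendrocytes as well as neurons, was nonetheless counted in the brain list and not here. miR-216 and miR-217 had no call among 5 tested, yet their median was 1.53: miR-216a-5p rose by 1.51 in iNs, from a mean of 485 to 1381 CPM, while at under 4 CPM in ESCs its interaction had an SE of 0.62 (adjusted p = 0.164).

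Of the 5 most abundant microRNAs of each group, miR-20b-5p of ESCs was called, as given above, and the others had no call. miR-182-5p, of the sensory miR-183 cluster, the most abundant in iNs, stood at 228332 ± 14684 CPM in control iNs and 261699 ± 14315 in deletion iNs (SD, n = 3), and lay at -0.05 (SE 0.17, adjusted p = 0.989). miR-183-5p lay at 0.03 (SE 0.18). miR-16-5p, high in every group at 74682 to 127774 CPM on average, lay at -0.32 (SE 0.20, adjusted p = 0.388), and miR-103-3p, abundant in iNs, at -0.27 (SE 0.20, adjusted p = 0.539). In ESCs, miR-93-5p lay at -0.30 (SE 0.27). miR-19b-3p fell in iNs, from 16923 ± 1875 to 12103 ± 730 CPM (SD, n = 3, adjusted p = 0.00512).

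The microRNAs of the deleted cluster were lost in both cell types, and no difference between the losses passed the test. All 55 tested fell in iNs and 54 fell in ESCs, so that of all 541 tested 100 fell in iNs (18.5%) and 81 in ESCs (15%), while 43 (7.95%) and 21 (3.88%) rose. As a share of all mature counts, the cluster held 12.1% to 12.8% in iNs of the control genotype and 0.0163% to 0.0199% with the deletion, and in ESCs 7.9% to 8.66% and 0.00799% to 0.0118%. In the interaction, none of the 55 was called, 6 had an unadjusted p under 0.05, and the lowest adjusted p was 0.0715. DESeq2's Wald test called 2 of them lower. With so few counts left, 28 of the 55 were at 0 in the 3 deletion iN libraries together and 25 in the deletion ESC libraries, and 18 stayed above 3 counts in both.

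Those 18 had interactions between -3.21 and 1.73, with a median of -0.37. miR-382-5p, the most abundant of the cluster in iNs, kept 235 counts over the 3 deletion iN libraries and 82 over the deletion ESC libraries. That is 0.192% of control in iNs (exact Poisson 95% interval 0.168% to 0.218%) and 0.261% in ESCs (0.208% to 0.324%), with an interaction of -0.47 (SE 0.24, adjusted p = 0.29). The intervals cover counting error only. miR-379-5p, the first of the cluster, kept 0.0701% in iNs and 0.0665% in ESCs, with an interaction of 0.08 (SE 0.33). miR-376b-3p stood at the upper end, with 0.136% in iNs against 0.0404% in ESCs and an interaction of 1.73 (SE 0.65, adjusted p = 0.127).

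Between these lay miR-134-5p, which limits dendritic spine growth, at 0.07 (SE 0.35), miR-369-3p at -0.28 (SE 0.43) and miR-409-3p at 0.79 (SE 0.45). miR-541-5p lay at 0.91 (SE 0.40), miR-323-3p at -0.85 (SE 0.65) and miR-300-3p at -0.94 (SE 0.40, adjusted p = 0.24). The share left was higher in iNs for 8 of the 18 and higher in ESCs for the other 10, so the cluster gave no common direction. Where a deletion group was at or under 3 counts, only a bound can be given: miR-154-5p, with 2 counts in deletion ESCs and 12 in deletion iNs, kept 0.149% in iNs, and in ESCs at most about the 0.101% that 3 counts make.

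**Figure D4:**
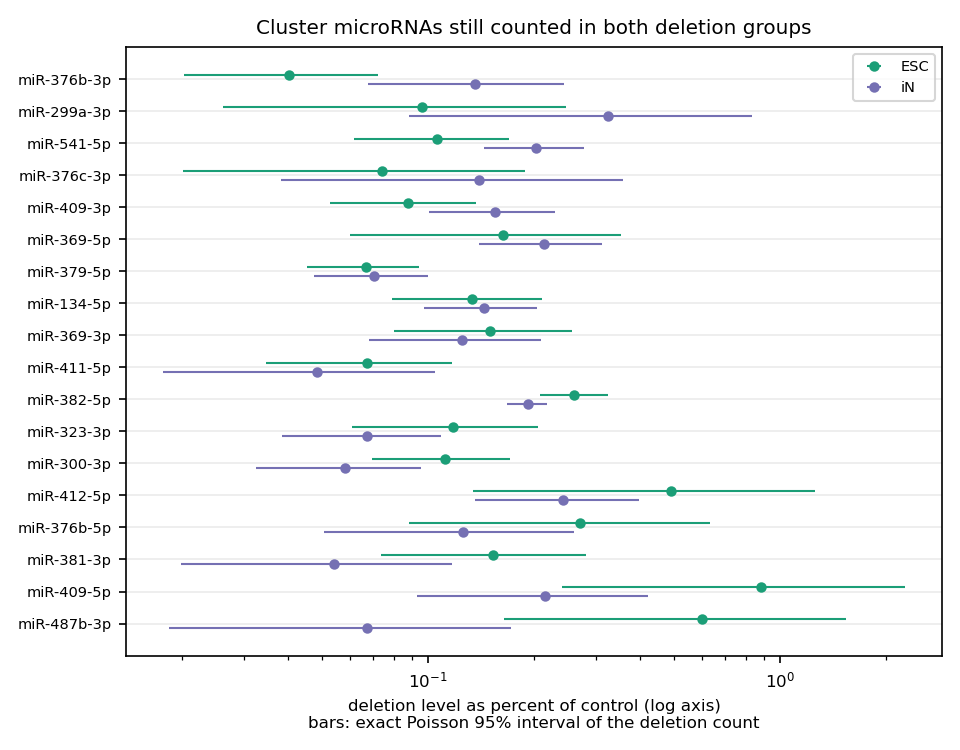
Deletion level as a percentage of control (log axis) for the 18 cluster microRNAs with more than 3 counts in both deletion groups, in ESCs (green) and iNs (purple), with the exact Poisson 95% interval of the deletion count. Rows run from the highest interaction at the top to the lowest. miR-376b-3p and miR-382-5p lie on opposite sides: the former kept more in iNs and the latter more in ESCs.

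The transcripts that hold the named microRNAs were read in the RNA libraries with the same contrast, where 2473 of 18299 genes had an interaction (13.5%), 917 higher (5.01%) and 1556 lower (8.5%). The deletion effect by itself passed for 22.9% of genes in iNs and 1.92% in ESCs. Lpp, whose intron holds miR-28a, stood at 58.9, 52.8 and 61.7 CPM in control iNs and 40.0, 45.1 and 47.5 in deletion iNs, and at 168, 171 and 191 in control ESCs against 222, 242 and 247 in deletion ESCs. It fell in iNs and rose in ESCs, the groups were apart in both, and its interaction was -0.81 (SE 0.11, adjusted p = 0.000123). miR-28a-3p lay on the same side of 0, at -1.19. Ctdsp2, host of a miR-26a copy, stood at 18.8, 18.1 and 21.8 CPM in control iNs and 26.6, 28.0 and 24.5 in deletion iNs, with an interaction of 0.50 (SE 0.10, adjusted p = 0.00276). The other host, Ctdspl, lay on the opposite side at -0.33 (SE 0.11, adjusted p = 0.0611).

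Slit2, an axon guidance gene that holds a copy of miR-218, lay at 0.40 (SE 0.09, adjusted p = 0.00848), with 109, 108 and 107 CPM in control iNs and 123, 119 and 121 in deletion iNs. Slit3, which holds the other copy, lay at -0.34 (SE 0.26, adjusted p = 0.44). Mir9-3hg, the host transcript of 1 miR-9 locus, lay at 1.72 (SE 0.53, adjusted p = 0.0438) at under 1 CPM in every library. Copz2, host of miR-152, rose in iNs from 2.34, 3.35 and 3.02 CPM to 5.10, 4.85 and 4.72, and its interaction of 1.38 (SE 0.46) missed the threshold (adjusted p = 0.0588). Aatk, host of miR-338, rose in iNs by 0.72 on the log2 scale, with an interaction of 0.85 (SE 0.35, adjusted p = 0.135).

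Other hosts moved little while their microRNA was called. Nfyc, host of miR-30c-1, lay at -0.02 (SE 0.09), and Vmp1, which overlaps miR-21a, at -0.16 (SE 0.07, adjusted p = 0.163). The reverse was seen for Mcm7, host of miR-93: it passed at 0.35 (SE 0.10, adjusted p = 0.0244), and miR-93-5p did not. The host transcripts of miR-205 and of miR-200b, miR-200a and miR-429 were at most 0.0581 CPM in any iN library and gave interactions with SEs of 1.53 and 2.25. The host of the miR-290 to miR-295 row was not tested. Mirg itself, the transcript of the end of the cluster, stood at 30.5, 32.3 and 37.6 CPM in control iNs and 0.101, 0 and 0.101 in deletion iNs, and at 44.3, 40.6 and 42.1 in control ESCs against 0 in each deletion ESC library.

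Of 27 genes of microRNA processing and function, 25 were tested, with a median of -0.03 against -0.02 for all genes. Of the 25, 2 were called higher and 4 lower, where 5.01% and 8.5% of all 18299 genes were. Those lower were 3 known from stem cells and 1 partner of Dicer. Lin28a, the RNA-binding protein that blocks let-7 maturation, stood at 29.4, 28.3 and 24.4 CPM in control iNs and 15.2, 13.2 and 16.3 in deletion iNs, and at 472, 442 and 480 in control ESCs against 495, 479 and 479 in deletion ESCs. Its interaction was -0.94 (SE 0.10, adjusted p = 2.52e-05). Trim71, a let-7 target of stem cells, stood at 102, 97.8 and 91.6 CPM in control iNs and 67.3, 60.8 and 68.7 in deletion iNs, with an interaction of -0.64 (SE 0.07, adjusted p = 3.73e-05). Lin28b lay at -0.33 (SE 0.10, adjusted p = 0.0376) and Prkra, the Dicer partner, at -0.34 (SE 0.10, adjusted p = 0.0395). Unlike Lin28a, Lin28b was about as high in control iNs as in control ESCs, at means of 86.6 and 80.7 CPM. let-7 itself had no call, as given above.

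Those higher were 2 parts of the silencing complex. Tnrc6b, a GW182 scaffold that Argonaute recruits, stood at 236, 257 and 277 CPM in control iNs and 350, 366 and 355 in deletion iNs, with an interaction of 0.50 (SE 0.07, adjusted p = 0.000315). Ago4, an Argonaute with little slicing activity, stood at 6.36, 7.74 and 7.61 CPM in control iNs and 11.1, 11.2 and 10.0 in deletion iNs, with an interaction of 1.37 (SE 0.31, adjusted p = 0.0148) at under 1 CPM in ESCs. The core enzymes had no call: Drosha lay at -0.13 (SE 0.07), Dgcr8 at 0.14 (SE 0.08), Dicer1 at 0.04 (SE 0.06) and Ago2 at -0.02 (SE 0.06).

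Marker RNA matched the labelled cell types. ESC markers (Pou5f1, Nanog, Sox2, Zfp42 and Esrrb) summed to 1270 to 1430 CPM in ESCs, and neuron markers (Map2, Tubb3, Rbfox3, Snap25 and Syt1) to 2430 to 2740 CPM in iNs. In iNs the ESC markers summed to 8.52 to 8.97 CPM with the control genotype and 4.68 to 5.68 with the deletion, with all 5 counted in both groups and Esrrb the largest part, while neuron markers summed to 2430 to 2500 and 2620 to 2740. The members did not move together. Map2, Tubb3 and Rbfox3 were higher in every deletion iN library than in any control iN library, Snap25 and Syt1 overlapped between genotypes, and Snap25 stood at 499, 452 and 486 CPM in control and 430, 464 and 441 in deletion libraries. Of the ESC markers, Pou5f1, Zfp42 and Esrrb were lower in every deletion iN library than in any control iN library, Nanog and Sox2 overlapped, and Sox2 leaned the other way, at 0.067, 0.048 and 0.234 CPM in control and 0.211, 0.537 and 0.998 in deletion iN libraries. Genes with deletion and control iN libraries apart in this way were not counted over all genes, of which 22.9% passed for the deletion effect in iNs. The part of these cell types in the microRNA results was not tested. In ESCs, ESC markers summed to 1400 to 1430 CPM with the control genotype and 1270 to 1330 with the deletion. The endoderm and mesoderm markers (Gata4, Sox17 and T) summed to at most 1.45 CPM in iNs.

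The authors' deposited comparison of deletion and control iNs, made from the same small RNA libraries, lists all 30 microRNAs. It lists copies of a mature sequence apart, and the first copy listed was taken. Its log2 fold change had the sign of the iN effect given here for all 30. Its adjusted p was under 0.05 for 21 of them, 16 of those called lower and 5 of those called higher. miR-26a-5p and miR-9-5p were not among the 21, though another copy of each had an adjusted p of 0.00853 and 0.000494. A further copy of miR-9-3p, which was among them, had an adjusted p of 0.832. It holds no ESC value and bears on the iN side of the contrast only.

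The calls differed in how far they rested on 1 library or on the processing. Over 23 other settings, 10 of the 19 lower calls passed in every one: miR-150-5p, miR-429-3p, miR-205-5p, miR-291a-5p, miR-200a-3p, miR-292a-5p, miR-200b-3p, miR-34a-5p, miR-295-3p and miR-363-3p. miR-20b-5p, miR-106a-5p and miR-146a-5p failed only when near-identical sequences were summed. None of the 11 higher calls passed in every setting. miR-6240 and miR-152-3p passed in 22 of 23, and 6 of the 11 (miR-26a-5p, miR-338-3p, miR-9-3p, miR-218-5p, miR-9-5p and miR-136-3p) passed in at most 9. With each of the 12 libraries left out in turn, miR-9-5p and miR-218-5p passed in none, and miR-9-3p, miR-136-3p and miR-338-3p in 1. The higher calls numbered 2 without control iN library A or deletion iN library B, and 10 without control iN library C.

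**Figure D5:**
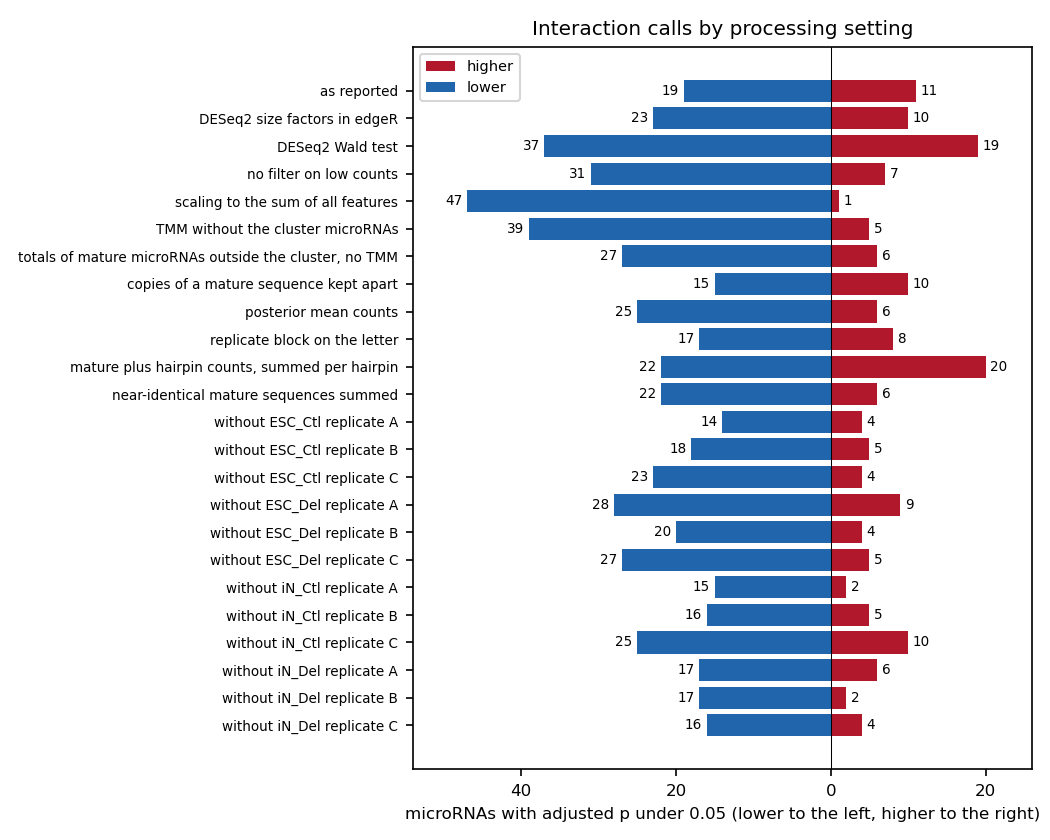
Number of microRNAs with an interaction at an adjusted p under 0.05, lower to the left and higher to the right, as reported (top) and in each other setting, including each library left out in turn. The lower side stayed between 14 and 47, while the higher side ran from 1 to 20.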

How the data were processed

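Small RNA was sequenced from the 4 groups, 3 libraries each. Per the submitters' processing notes, the tools were cutadapt 1.4.2, STAR 2.4.1d, RSEM 1.2.30, SAMtools and DESeq2, with build mm10. The authors deposited RSEM expected counts per mature microRNA, hairpin and gene, not normalized, with posterior mean counts beside them. They also deposited DESeq2 tables with mean normalized counts (a signal), log2 fold changes and p-values. Of these, the deletion against control iN table was compared with the results.

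Copies of a mature sequence were summed and counts rounded. Names were given to 828 of 1907 accessions (99.99% of mature counts) whose mean equalled that of a named entry in a deposited table within a relative tolerance of 1e-08. A second deposited table gave the same match for 459 of 459 names.

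edgeR 4.0.16 (R 4.3.3) fitted the 12 libraries with group means, TMM and filterByExpr at a minimum count of 10, and its quasi-likelihood test gave the contrasts, with Benjamini-Hochberg adjustment over all 541 microRNAs. SEs are the estimate over the root of F. RNA-seq genes had a fit of their own, over 14904735 to 21499106 counts per library. The scripts were tested on simulated data. Alternatives were other scalings, DESeq2 1.42.0, no filter, posterior means, copies apart, a replicate block and each library left out. Sums per hairpin and of near-identical sequences were added after the data were seen.

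The text names the 10 highest and 10 lowest called microRNAs outside the cluster whose average log2 CPM reaches 4, up to 10 cluster microRNAs with at least 10 counts in each deletion group, up to 4 called per list, the 5 most abundant of each group, and their hosts, arms and neighbours. Members of a list or seed that are named besides these were chosen after their values were seen. The lists and the contrast were chosen with earlier results of these data known. Libraries of a group differed by more than sampling noise.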

Additional observations from a re-analysis of the deposited data

Results flagged for a closer look

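The deletion effect differed between iNs and ESCs by the test of that difference itself for 30 microRNAs, 4 host transcripts and 6 processing genes. The log2 difference was below 0 for miR-150-5p -1.55, miR-20b-5p -1.50, miR-429-3p -1.49, miR-205-5p -1.40, miR-30c-1-3p -1.38, miR-291a-5p -1.27, miR-106a-5p -1.25, miR-28a-3p -1.19, miR-146a-5p -1.18, miR-221-3p -1.18, miR-200a-3p -1.15, miR-292a-5p -1.14, miR-200b-3p -0.99, miR-34a-5p -0.92, miR-295-3p -0.87, miR-363-3p -0.85, miR-23a-3p -0.75, miR-27a-3p -0.67 and miR-21a-5p -0.58. It was above 0 for miR-218-5p 0.57, miR-9-5p 0.59, miR-26a-5p 0.62, miR-136-3p 0.76, miR-9-3p 0.90, miR-152-3p 0.92, miR-338-3p 1.34, miR-433-3p 1.42, miR-135a-5p 1.51, miR-3078-5p 2.20 and miR-6240 2.71. Among the host transcripts it was Slit2 0.40, Ctdsp2 0.50, Lpp -0.81 and Mir9-3hg 1.72. Among the processing genes it was Prkra -0.34, Ago4 1.37, Tnrc6b 0.50, Lin28a -0.94, Lin28b -0.33 and Trim71 -0.64. No explanation was tested.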

How the results depend on the processing

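Of the microRNAs with an interaction, 11 were higher and 19 lower as reported. The counts were 19 and 37 by DESeq2's Wald test, 7 and 31 without the filter on low counts, 1 and 47 on scaling to all features, and 5 and 39 with TMM without the cluster. Higher calls numbered 6 on totals outside the cluster, 6 with posterior mean counts, 20 with hairpin counts added and 6 with near-identical sequences summed, the last pair of choices made after the data were seen. Leaving out 1 library gave 2 to 10 higher and 14 to 28 lower. The deletion effect in iNs was called higher for 43, against 12 on scaling to all features, 20 with TMM without the cluster, 27 with near-identical sequences summed and 21 to 50 with a library left out. In ESCs it was called higher for 21, against 39 with DESeq2 size factors, 41 by the Wald test, 37 without the filter, 33 on scaling to all features and 10 to 45 with a library left out. Lower calls in ESCs were 81, and 49 with hairpin counts added. The count of genes called in the RNA-seq interaction (interaction, RNA-seq: lower) ran from 907, without deletion iN library B, to 1566. miR-30c-1-3p turned to 0.0862 (adjusted p = 0.86) with hairpin counts added. The cause was not tested. With a replicate block, 8 were higher and 17 lower, and 24 of the 30 passed. Same-letter libraries of control and deletion ESCs correlated in their deviations at r = 0.353 (A), 0.0151 (B) and 0.288 (C), and of the other 15 same-letter pairs 1 was over 0.1, so the letters were not taken as a pairing. Few counts in ESCs limit miR-3078-5p, miR-338-3p and miR-6240, and few counts left in deletion libraries limit the cluster.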
